A study of Mus musculus with 21 samples.

Results

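Expression of 42 genes of the extracellular matrix was examined in mouse hindlimb muscle, out of 46071 genes in the count table. The 42 are a list of named matrix genes: 6 fibrillar collagens, 11 basement membrane genes, 7 other collagens, 3 adhesive and elastic glycoproteins, 4 matricellular proteins, 3 small leucine-rich proteoglycans, 3 cross-linking enzymes and 5 matrix proteases and inhibitors. All 42 had counts in every library and passed the filter on low counts. In libraries from diabetic mice with intact FoxO genes, 6 of the 42 fell against non-diabetic floxed libraries, led by both chains of type I collagen, and none rose, while 0.853% of all tested genes fell and 0.498% rose. With single libraries left out in turn the number that fell was 0 to 8, while 0.178 to 1.75% of all tested genes fell. Among diabetic mice, 4 of the 42 rose in the FoxO knockout against floxed libraries, among them Col3a1 and the adhesion glycoprotein gene Fn1, and none fell, while 2.47% of all tested genes rose and 2.42% fell. With single libraries left out that number was 1 to 6, and in the fits that left 1 it was the protease gene Mmp2. Over these fits 1.3 to 2.83% of all tested genes rose.

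RNA sequencing was done on 21 libraries in 4 groups. STZ TKO (6 libraries) came from mice with FoxO1, FoxO3 and FoxO4 floxed and deleted by an ACTA1-Cre transgene, made diabetic with streptozotocin (STZ), a toxin of pancreatic beta cells. TKO (6 libraries) carried the same deletions without STZ, STZ floxed (5 libraries) were floxed mice without Cre given STZ, and floxed (4 libraries) were floxed mice without Cre and without STZ. All groups thus carried the floxed FoxO alleles, and the controls were littermates on a mixed C57Blk6, C57Blk6J and 129 background. Mice were fasted overnight before 150 mg/kg of STZ, females received a further 75 mg/kg on day 3, and only animals whose blood glucose stayed above 300 mg/dL were used. Control injections were of citrate buffer. The labels give neither the age nor the sex behind a library. ACTA1 encodes the actin of skeletal muscle fibres, so the Cre is driven in fibres, while fibroblasts, vessels and immune cells of the same tissue are not its target. The RNA was that of quadriceps mixed with gastrocnemius, so every cell type of the muscle and any attached tendon contributed, and fewer cells of a type and less RNA per cell cannot be told apart.

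The extracellular matrix of muscle has layers with different makers. Fibrillar collagens of types I, III and V form the tensile fibres of the perimysium and endomysium and are made mainly by fibroblasts, which also secrete decorin, lumican and the enzymes that cross-link collagen. Each muscle fibre and capillary is wrapped in a basement membrane of type IV collagen, laminin, nidogen and perlecan, which fibres, endothelial cells and fibroblasts build together. Sparc, periostin (Postn) and tenascin C (Tnc) are matricellular proteins that regulate how cells and collagen interact, and matrix metalloproteinases and their inhibitors (Timps) set the rate of breakdown.

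Levels are given as CPM, the usual depth-scaled count, with library sizes adjusted for composition. Total counts were 2951290 to 7687823 per library, with 3586183 to 6234979 in STZ TKO, 2951290 to 6014870 in TKO, 3377613 to 7676700 in STZ floxed and 4176132 to 7687823 in floxed libraries. The labels were checked on 2 of the deleted genes: Foxo4 was at most 12.7 CPM in the STZ TKO libraries and at most 8.29 CPM in TKO, against at least 182 CPM in STZ floxed and at least 124 CPM in floxed. Foxo1 was at most 26.7 and 17.7 CPM in the STZ TKO and TKO libraries, against at least 36.4 and 46.8 CPM in STZ floxed and floxed. Differences were tested with edgeR's quasi-likelihood test over all 12658 genes that passed the filter, with Benjamini-Hochberg adjustment and a threshold of 0.05. A fold change is given as log2 ± SE. Counts of genes at an unadjusted p under 0.05 and counts of fold-change signs are described only, since their share over all genes was not computed. Nothing in the labels ties a library to an animal of its own, and p-values here therefore measure library-to-library spread, which may be technical.

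Single libraries, numbered here as in their titles, stood apart in these genes. Library 4 was the highest STZ TKO library in 33 of the 42, library 20 the highest TKO library in 40, library 3 the highest STZ floxed library in 24 and library 1 the highest floxed library in 32. The counts and class medians are also given with these libraries left out. The titles' library codes fall into 6 runs of consecutive codes, which the labels do not call batches, and values are also given within runs.

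**Figure D1:**
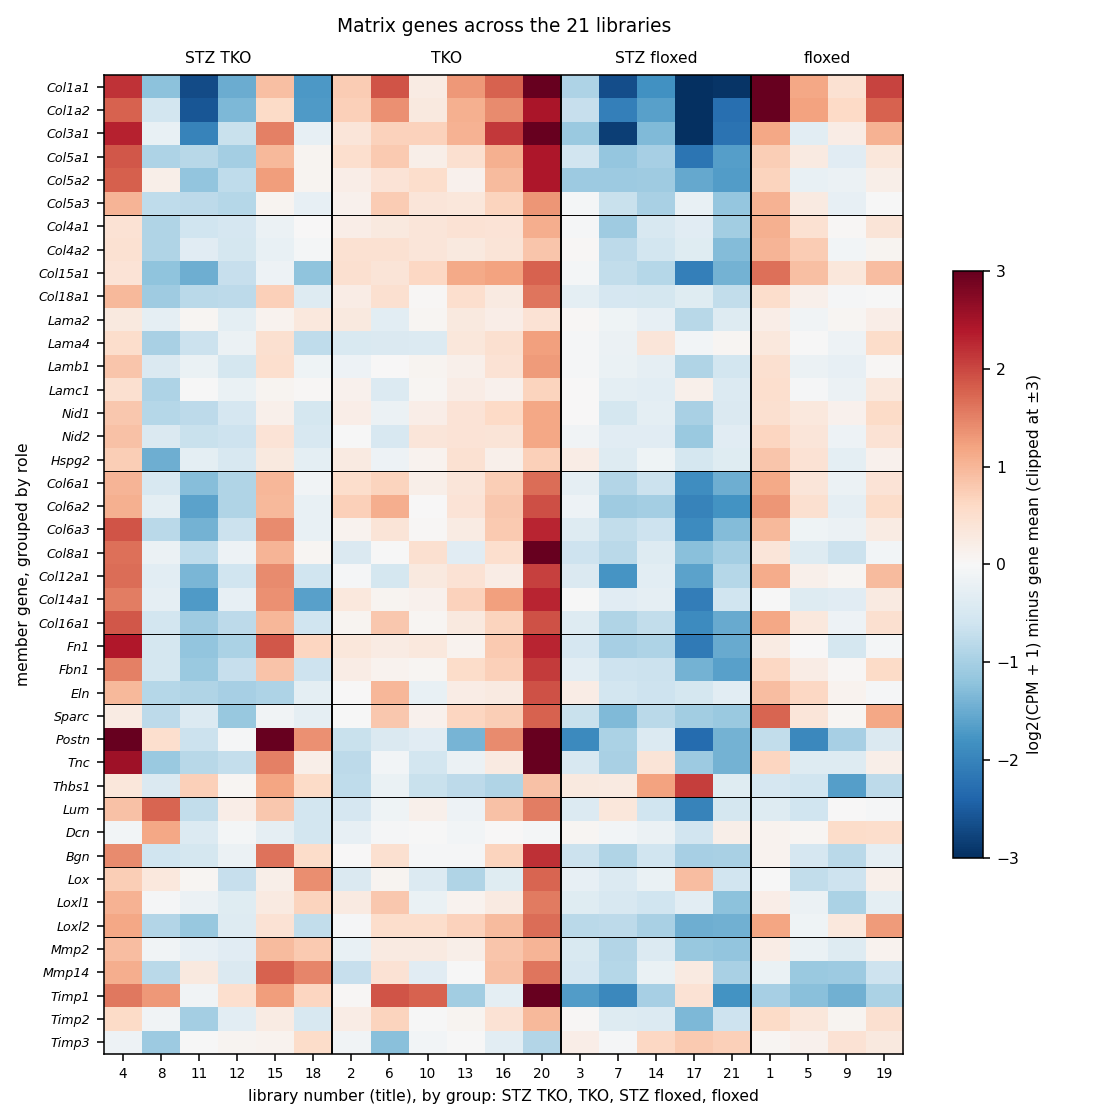
Heat map of the 42 matrix genes (rows, grouped by role) in the 21 libraries (columns, by title number within STZ TKO, TKO, STZ floxed and floxed); colour is log2(CPM + 1) minus the gene's mean over all libraries, clipped at ±3. Libraries 4 and 15 of STZ TKO and library 20 of TKO are red over most rows, and the upper rows of the STZ floxed block, the fibrillar collagens, hold the deepest blue.

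Divided by the summed exon length of each gene, the matrix transcripts were ranked by their mean in each of the 4 groups. In STZ TKO libraries the highest mean levels per kilobase were those of Dcn at 115 ± 62.6, Sparc at 86.2 ± 28.5 and Col3a1 at 70.7 ± 74.4 CPM per kb (SD, n = 6). TKO libraries had Sparc first at 190.4 ± 96.0 CPM per kb, then Col3a1 at 137 ± 126 and Col1a1 at 125 ± 98.2 (SD, n = 6), again with spreads that overlap. The Col3a1 mean there was raised by library 20, at 3694 CPM against a group median of 739 CPM. In STZ floxed libraries the order was Dcn at 101, Sparc at 55.2 and Thbs1 at 41.5 CPM per kb, with Col3a1 in place 15, Col1a2 in place 16 and Col1a1 in place 18. Floxed libraries had Sparc first at 216 ± 116 CPM per kb, then Col1a1 at 174 ± 173, Dcn at 135 ± 24.7 and Col1a2 at 121 ± 96.1 (SD, n = 4), neighbours that do not differ beyond their spread. Decorin (Dcn), a collagen-binding proteoglycan secreted by fibroblasts, thus kept a place among the first 4 in every group, and none of its 5 contrasts passed the threshold. The lowest transcript per kilobase in the STZ floxed and floxed libraries was Col8a1, at 0.719 and 1.21 CPM per kb, and Col12a1 and Col8a1 were the lowest pair in both knockout groups.

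Promoter sequences are shown for 3 members that passed the test: Col1a2 and the basement membrane collagen Col4a1, which both fell in STZ floxed against floxed libraries, and Col3a1, which rose in STZ TKO against STZ floxed libraries. Each line gives the 250 bases before the gene's start in RefSeq on GRCm38.p6, 5′ to 3′ on the gene's strand, and capitals mark matches to any of 3 motifs on either strand. The first motif was CCAAT, which reads as ATTGG when it lies on the opposite strand. The second was the GC box, spelled GGGCGG, and the third was the TATA box, spelled TATAAA.
Col1a2, chr6:4505368-4505617, plus strand: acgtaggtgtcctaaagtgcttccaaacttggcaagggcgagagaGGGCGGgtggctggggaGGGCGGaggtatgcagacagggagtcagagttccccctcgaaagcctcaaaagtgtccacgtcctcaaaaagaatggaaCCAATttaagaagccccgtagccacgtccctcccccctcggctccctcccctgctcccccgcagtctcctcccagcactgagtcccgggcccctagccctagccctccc
Col3a1, chr1:45311288-45311537, plus strand: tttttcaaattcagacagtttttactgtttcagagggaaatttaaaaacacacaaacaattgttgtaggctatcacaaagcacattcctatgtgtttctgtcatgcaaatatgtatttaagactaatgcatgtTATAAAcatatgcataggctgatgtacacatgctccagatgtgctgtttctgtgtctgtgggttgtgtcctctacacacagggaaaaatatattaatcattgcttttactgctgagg
Col4a1, chr8:11312827-11313076, minus strand: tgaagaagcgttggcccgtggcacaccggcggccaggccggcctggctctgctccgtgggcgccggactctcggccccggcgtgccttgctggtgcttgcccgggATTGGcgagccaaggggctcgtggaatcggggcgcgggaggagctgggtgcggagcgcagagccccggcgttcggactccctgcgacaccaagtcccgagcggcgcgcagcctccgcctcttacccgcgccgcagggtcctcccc
Upstream of Col1a2, CCAAT begins 109 bases before the start and GGGCGG begins 205 and 188 bases before it. Col3a1 has TATAAA at 117 bases and neither of the others, and Col4a1 has CCAAT on the opposite strand at 145 bases. The forkhead motif GTAAACA is in none of these 3 windows on either strand, nor in those of Col15a1 and Sparc, which hold none of the 4 motifs. The windows of Col1a2 and Sparc lie inside the annotated gene bodies, so they belong to a start downstream of the outermost one. Absence of a motif holds for these windows only. Of the 42 members, 26 had a window in the table, 30 windows in all. GTAAACA was in 3.17% of all 32851 windows and in 1 of the 30, CCAAT in 33.8% and in 11, GGGCGG in 32.7% and in 20, and TATAAA in 12.4% and in 4. Col4a1 and Col4a2 lie head to head on chromosome 8 and their annotated gene bodies share 22 bases.

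STZ floxed against floxed libraries asks what diabetes does to the matrix genes where FoxO is intact. Of the 42 genes 6 fell and 0 rose in edgeR, while 1.35% of all tested genes passed, 0.853% lower and 0.498% higher; DESeq2 called 10 lower and 1 higher, against 1.72% and 1.36% of the genes it tested. The 6 were Col1a1 and Col1a2, the chains of type I collagen, the collagen-binding protein gene Sparc, the basement membrane collagens Col4a1 and Col15a1, and Loxl2, a lysyl oxidase that cross-links collagen. A fold change below 0 was found in 37 of the 42, with a median of -0.81 over the 42 against 0.016 over all genes, and 21 had an unadjusted p under 0.05. Fibrillar collagens had a median of -2.07 and basement membrane genes one of -0.69. In 18 of the 42 every STZ floxed library was below every floxed library, and in 1, Thbs1, every one was above, against 5.17 and 3.62% of all genes.

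Col1a1 showed the widest separation. It had 121, 35.3, 64.6, 13.6 and 29.0 CPM in STZ floxed libraries, against 2803, 516, 316 and 939 CPM in floxed libraries. The highest STZ floxed library thus held less than the lowest floxed one, and the fold change was -4.43 ± 0.87 (edgeR, adjusted p = 0.0246). Under the knockout Col1a1 had a lowest of 35.1, a median of 89.2 and a highest of 1032.5 CPM in STZ TKO libraries and a lowest of 272, a median of 677 and a highest of 2055 CPM in TKO libraries. Those groups overlap, since library 4 lies above 5 of the 6 TKO libraries.

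Col1a2 encodes the partner chain of the same triple helix. It was 238, 92.6, 125, 32.9 and 79.6 CPM in STZ floxed libraries, against 3240.5, 894, 582 and 1305 CPM in floxed libraries. Again no library of one group reached the other, at -3.73 ± 0.71 (adjusted p = 0.0183). In STZ TKO libraries Col1a2 had a lowest of 63.9, a median of 208 and a highest of 1311 CPM, and in TKO libraries a lowest of 471, a median of 902 and a highest of 2108 CPM.

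Col3a1, the collagen of fine reticular fibres, had 186, 56.0, 160.2, 36.2 and 85.4 CPM in STZ floxed libraries, against 894, 324, 469.7 and 828 CPM in floxed libraries. The groups did not overlap, but the fold change of -2.58 ± 0.72 missed the threshold (adjusted p = 0.0866). Type V collagen chains, which nucleate and limit the thickness of type I fibrils, had fold changes of -1.56 ± 0.55 (Col5a1), -1.47 ± 0.52 (Col5a2) and -0.93 ± 0.37 (Col5a3), none past the threshold. All 6 fibrillar collagens had an unadjusted p under 0.05, and 5 of the 6, all but Col5a3, had groups that did not overlap.

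**Figure D2:**
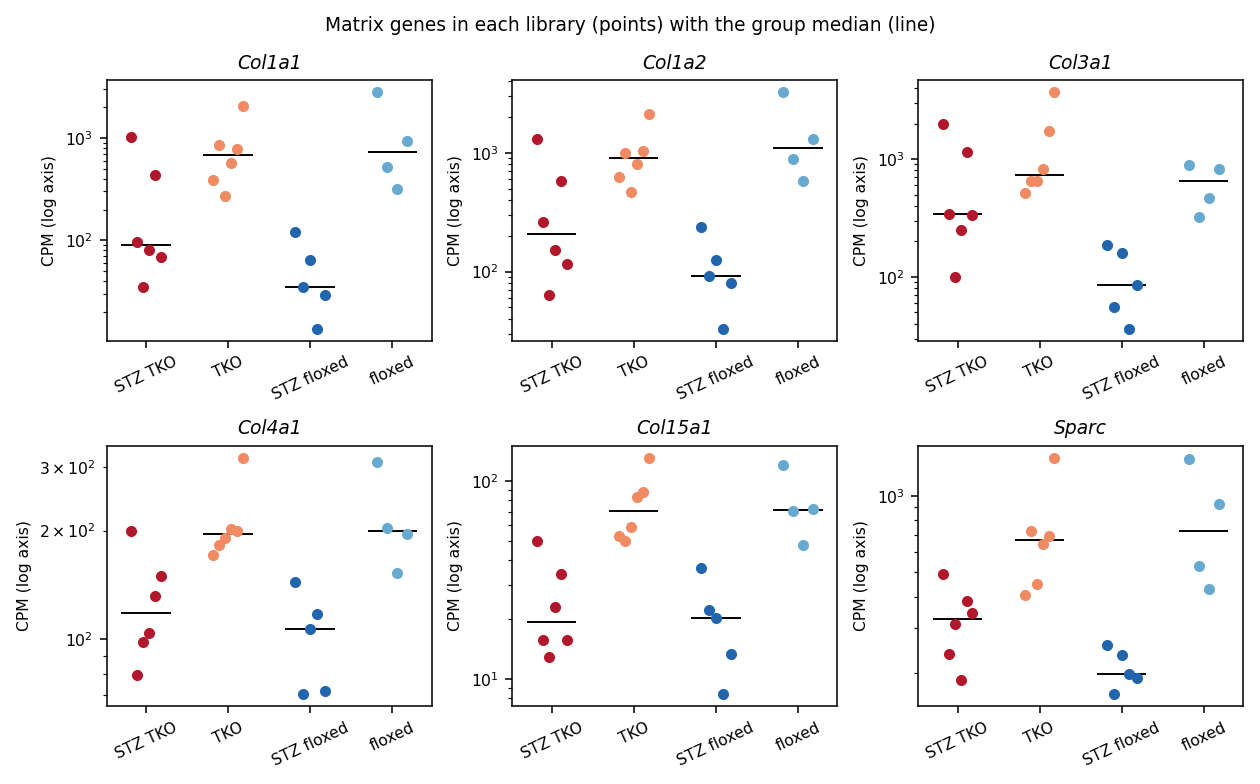
CPM on a log axis for Col1a1, Col1a2, Col3a1, Col4a1, Col15a1 and Sparc in each library (points) of STZ TKO, TKO, STZ floxed and floxed, with the group median as a line. The STZ floxed median is the lowest of the 4 for Col1a1, Col1a2, Col3a1, Col4a1 and Sparc, and for Col1a1 the highest STZ floxed point is 121 CPM and the lowest floxed point 316 CPM.

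Sparc had the smallest adjusted p of the 42 in this comparison. It stood at 257, 164, 234, 199 and 190.3 CPM in STZ floxed libraries, against 1393, 526.5, 427 and 928 CPM in floxed libraries, -1.97 ± 0.35 (adjusted p = 0.00684). The STZ floxed libraries were close together and all below the lowest floxed library. Loxl2 had 11.5, 11.7, 10.1, 6.91 and 7.09 CPM in STZ floxed libraries, against 48.3, 18.9, 26.2 and 52.4 CPM in floxed libraries, also without overlap, -1.96 ± 0.44 (adjusted p = 0.0274). The other lysyl oxidases did not pass, at -0.36 ± 0.36 for Loxl1 and 0.26 ± 0.48 for Lox.

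Basement membrane genes were lower by less. Col4a1 had 144, 70.3, 106, 117 and 71.9 CPM in STZ floxed libraries, against 310.4, 204, 152 and 195 CPM in floxed libraries, -1.08 ± 0.27 (adjusted p = 0.0488). Its partner chain Col4a2 had 108, 60.5, 72.0, 82.2 and 42.3 CPM in STZ floxed libraries, against 215, 179, 100.1 and 113 CPM in floxed libraries, -1.05 ± 0.27 (adjusted p = 0.0527). The Col4a2 groups overlapped, since library 3 lay above library 9, and those of Col4a1 did not. Col15a1, which links the basement membrane to the fibrils beneath it, had 36.3, 22.3, 20.3, 8.36 and 13.4 CPM in STZ floxed libraries, against 121, 71.0, 47.7 and 72.6 CPM in floxed libraries. That was -1.95 ± 0.41 without overlap (adjusted p = 0.0217), a fold nearer to those of the fibrillar collagens than to the median of its own class.

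The laminin and nidogen genes had smaller fold changes. Lama2, the laminin chain of the muscle fibre surface, had 122, 109, 100.1, 66.9 and 90.7 CPM in STZ floxed libraries, against 138, 111, 124 and 136 CPM in floxed libraries, -0.38 ± 0.19 (adjusted p = 0.362), with overlapping groups. Nid1, which bridges laminin and type IV collagen, had 128, 87.4, 104, 63.8 and 94.5 CPM in STZ floxed libraries, against 179, 158, 138 and 191 CPM in floxed libraries, -0.80 ± 0.31 (adjusted p = 0.216), with every STZ floxed library below every floxed library. All 11 basement membrane genes had a negative fold change, from -0.16 for Lama4 to -1.95 for Col15a1, 2 of them past the threshold. For Nid2 the value is uncertain, because it overlaps Rtraf on the opposite strand, which had 8422 counts against 1794 for Nid2, and the strand setting of the counting is not given in the sources used here.

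None of the 7 other collagens passed, although all 7 were negative with a median of -1.44. The type VI chains, which form beaded filaments around fibres and whose loss causes muscular dystrophy, were at -1.44 ± 0.44 (Col6a1), -1.71 ± 0.50 (Col6a2) and -1.22 ± 0.59 (Col6a3). Among glycoproteins of adhesion and elasticity the values were -1.07 ± 0.61 for fibronectin (Fn1), -1.24 ± 0.49 for fibrillin 1 (Fbn1) and -0.81 ± 0.44 for elastin (Eln). Decorin, lumican and biglycan had -0.42, -0.26 and -0.49. Thbs1, thrombospondin 1, which activates latent TGF-beta, went the other way, with 159, 156, 298, 547 and 100.4 CPM in STZ floxed libraries, against 90.9, 84.6, 40.5 and 74.4 CPM in floxed libraries, 1.80 ± 0.44 (adjusted p = 0.0577). It did not pass, though every STZ floxed library was above every floxed library.

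In 35 of the 42 genes the STZ floxed library was below the floxed library in each of the 3 runs that hold both, against 21.5% of all genes, and Thbs1 was above it in each, against 20.5%. These 35 included all 6 fibrillar collagens and all 11 basement membrane genes. Fibrillar medians were -2.02, -1.99 and -2.65 in the 3 runs and basement membrane medians -0.59, -0.74 and -0.75. Col1a1 differed by -4.53, -3.86 and -5.00 (log2).

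The number of genes past the threshold moved with single libraries. With library 1 left out 0 genes passed, with library 7 or 17 left out 1, and with library 14, 19 or 21 left out 2. The share of all genes that fell was 0.178% without library 1, and 0.332 and 0.301% without library 7 and 17. Without library 14, 19 and 21 it was 0.351, 0.279 and 0.406%, against 0.853% in the full fit. Sparc was lost only without library 1 (adjusted p = 0.0566; 0.004 to 0.0566 over the 9 libraries left out in turn). The count was 3 without the filter on low counts (0.285% of all genes lower in that fit), 12 with the run as a block (1.34%), 13 with only the 2 groups in the fit (1.33%), and 17 without libraries 4, 15, 16 and 20 (1.1%). Without library 3 it was 8 (1.75%), with a fibrillar median of -2.35 and a basement membrane median of -0.75. Without library 1 these medians were -1.87 and -0.54. The count was 3 without libraries 17 and 18 (0.565%) and 1 without libraries 1 and 20 (0.227%). Libraries 4, 15, 16, 18 and 20 are in neither group and enter only through the spread, scaling and filter that all 4 groups share.

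Genes that build, receive or read the matrix were described from lists. Of 21 genes of collagen synthesis and processing 1 fell, Adamts2, the protease that removes the procollagen N-propeptide, to 11.8 ± 3.96 CPM in STZ floxed libraries against 38.0 ± 11.7 CPM in floxed libraries (SD, n = 5 and 4), a log2 fold change of -1.68 ± 0.35 (adjusted p = 0.0183). The list's median was -0.40. Of 17 TGF-beta signalling genes 1 fell, Smad3, the transcription factor that carries the signal to collagen genes, with 54.8 ± 13.8 CPM in STZ floxed against 165 ± 3.36 CPM in floxed libraries, -1.59 ± 0.33 (adjusted p = 0.0204). None of 19 matrix receptors and none of 17 genes of collagen breakdown and uptake passed, with 1 and 2 at an unadjusted p under 0.05 in edgeR.

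Tendon markers were lower along with these genes. Of 10 tendon markers 2 fell, Cilp2 at -3.45 ± 0.67 and Tnmd at -2.80 ± 0.67 (adjusted p = 0.0154 and 0.0432), and the summed level of the 10 was 207 to 854 CPM in STZ floxed libraries, against 701 to 1307 CPM in floxed libraries. All 10 were negative, with a median of -2.16. None of 14 fibroblast markers passed (2 at an unadjusted p under 0.05), with a median of -0.43 and summed levels of 767 to 2416 CPM in STZ floxed against 1771 to 2634 CPM in floxed libraries. Of 10 muscle fibre markers 1 fell, Mb (myoglobin), at -2.65 ± 0.45 (adjusted p = 0.00633). The part of tendon or fibroblast content in the lower collagen counts was not tested.

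**Figure D3:**
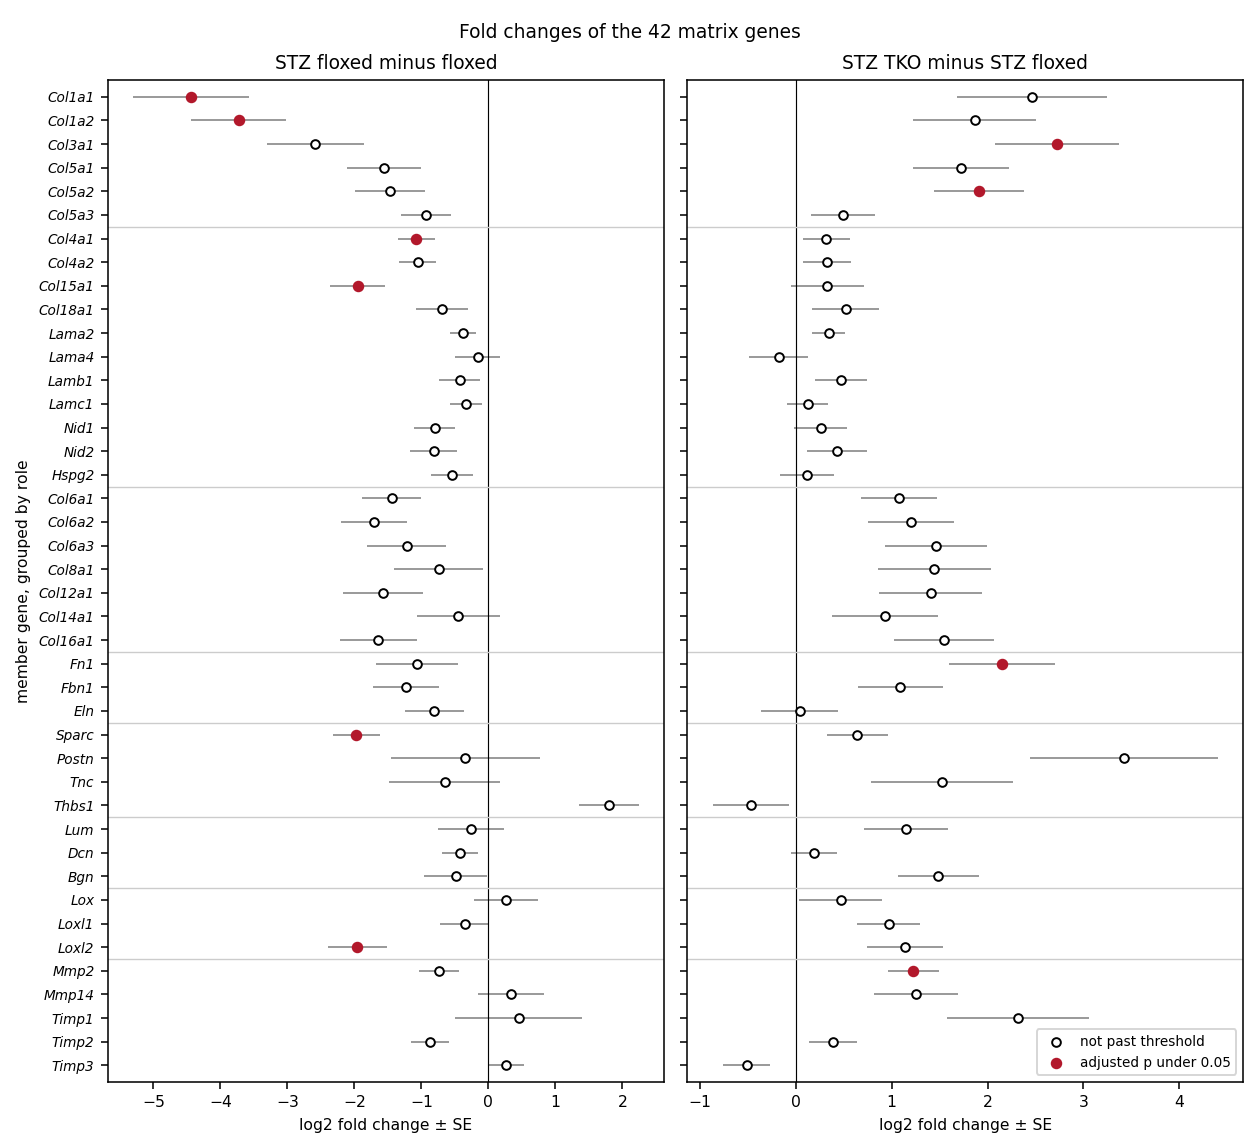
Log2 fold change ± SE of the 42 genes, grouped by role, for STZ floxed minus floxed (left) and STZ TKO minus STZ floxed (right); filled red points have an adjusted p under 0.05. The 6 filled points on the left lie below 0 and the 4 on the right above 0, and the same STZ floxed libraries enter both panels.

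STZ TKO against STZ floxed libraries asks what loss of FoxO in fibres changes under diabetes. Here 4 of the 42 genes rose and 0 fell in edgeR, while 4.89% of all genes passed, 2.47% higher and 2.42% lower. They were Mmp2, a gelatinase of fibroblasts, Col3a1, the type V collagen chain Col5a2, and Fn1. Of the 42, 39 had a positive fold change, 22 had an unadjusted p under 0.05, and the median was 1.02 against 0.035 over all genes. By class the median was 1.89 for fibrillar collagens, 1.41 for other collagens and 0.32 for basement membrane genes, of which none passed and none had an unadjusted p under 0.05. This comparison shares the STZ floxed libraries with the preceding one, so the 2 are not independent.

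Mmp2 was the only gene of the 42 whose groups did not overlap, against 1.51% of all genes that were wholly higher and 2.24% that were wholly lower. It had a lowest of 60.5, a median of 103 and a highest of 151 CPM in STZ TKO libraries, against 56.3, 41.8, 58.1, 34.4 and 33.6 CPM in STZ floxed libraries, 1.23 ± 0.27 (adjusted p = 0.0102). It passed with each of the 11 libraries left out in turn. TKO libraries had a lowest of 66.5, a median of 93.7 and a highest of 159 CPM, against 90.1, 66.8, 59.4 and 83.7 CPM in floxed libraries.

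Col3a1 had 99.3, 340.1 and 1982 CPM (lowest, median and highest) in STZ TKO libraries, against 186, 56.0, 160.2, 36.2 and 85.4 CPM in STZ floxed libraries, 2.73 ± 0.65 (adjusted p = 0.0267). Libraries 4 and 15 held the 2 highest STZ TKO values, 1982 and 1152 CPM, and library 11 the lowest, inside the STZ floxed range. Col5a2 had a lowest of 24.9, a median of 63.8 and a highest of 204 CPM in STZ TKO libraries, against 26.7, 26.5, 27.2, 19.4 and 17.4 CPM in STZ floxed libraries, 1.92 ± 0.47 (adjusted p = 0.0245). Here too library 11 alone lay within the STZ floxed range. In TKO libraries Col5a2 had 63.5, 80.6 and 314 CPM (lowest, median and highest), against 92.0, 49.8, 51.5 and 65.5 CPM in floxed libraries.

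Fn1, the adhesive glycoprotein that cells lay down ahead of collagen, had a lowest of 62.7, a median of 163 and a highest of 766 CPM in STZ TKO libraries, against 101, 71.5, 74.8, 32.0 and 49.8 CPM in STZ floxed libraries, 2.15 ± 0.55 (adjusted p = 0.035). Libraries 4 and 15 were again highest, at 766 and 527 CPM, and 3 of the 6 STZ TKO libraries lay within the STZ floxed range. TKO libraries had 155, 180.2 and 706 CPM, against 170.0, 144, 99.4 and 137 CPM in floxed libraries.

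The type I chains did not pass, at 2.46 ± 0.78 for Col1a1 and 1.86 ± 0.64 for Col1a2 (adjusted p = 0.0995 and 0.121), with STZ TKO libraries spread from 35.1 to 1032.5 CPM for Col1a1. Postn had the highest fold change of the 42, 3.42 ± 0.98, and did not pass (adjusted p = 0.0726); it had a lowest of 17.7, a median of 58.1 and a highest of 336 CPM in STZ TKO libraries, against 6.86, 14.2, 21.2, 4.91 and 10.0 CPM in STZ floxed libraries. Timp1, a secreted inhibitor of metalloproteinases, was at 2.32 ± 0.74 (adjusted p = 0.0781), and biglycan (Bgn) at 1.49 ± 0.42 (adjusted p = 0.0522). In the basement membrane Col4a1 and Col4a2 were at 0.32 ± 0.25 and 0.32 ± 0.25, Col15a1 at 0.33 ± 0.38, Lama2 at 0.35 ± 0.17 and Nid1 at 0.26 ± 0.28. Only Lama4 (-0.18), Thbs1 (-0.47) and Timp3 (-0.51) had negative values.

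Inside the 4 runs of library codes that hold both groups, 24 of the 42 genes were higher in STZ TKO in every run and 1, Timp3, was lower in every run, against 13.2 and 13.4% of all genes. The 24 included 5 of 6 fibrillar collagens and 6 of 7 other collagens, but 1 of 11 basement membrane genes. Fibrillar medians were 2.70, 1.37, 2.28 and 2.06 over the runs, and basement membrane medians 0.50, -0.32, 0.44 and 0.35. Col3a1 was higher by 3.41, 2.61, 2.84 and 3.20 (log2), and Mmp2 by 1.39, 0.78, 1.37 and 1.95. With the run as a block, 17 members rose and 1, Timp3, fell, while 4.91% of all genes rose and 3.53% fell in that fit.

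**Figure D4:**
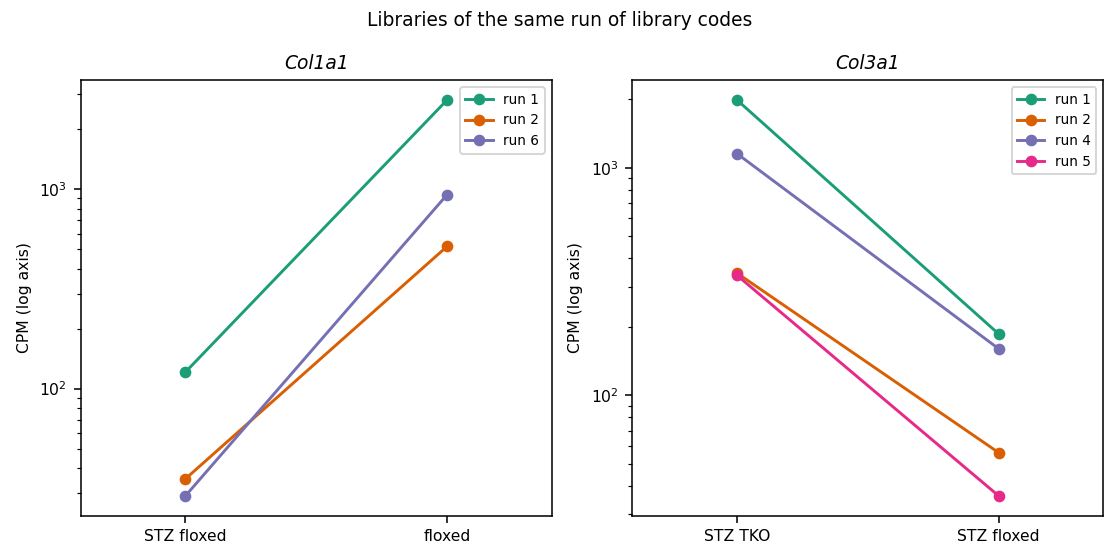
CPM on a log axis within runs of library codes, one line per run: Col1a1 in STZ floxed and floxed libraries (left, 3 runs) and Col3a1 in STZ TKO and STZ floxed libraries (right, 4 runs). Every line climbs to the right on the left panel and descends on the right panel, with the STZ floxed point the lower end of each.

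Macrophage markers moved with these genes. Of 14 macrophage markers 8 rose, led by Lyz2, Ctss and Mpeg1, and their summed level was 275 to 2502 CPM in STZ TKO libraries, against 168 to 267 CPM in STZ floxed libraries. All 14 had counts in every library, a positive fold change and an unadjusted p under 0.05 in edgeR, with a median of 2.00. The sum was highest in libraries 15 and 4, at 2502 and 1912 CPM, the same libraries that had the highest Col1a1, Col1a2, Col3a1, Col5a2, Fn1 and Mmp2. Without libraries 4, 15, 16 and 20, the libraries highest in these markers, 2 members passed (Col5a2 and Postn), while 1.72% of all genes rose. The fibrillar median was 0.53 and the basement membrane median -0.15 in that fit. Col3a1 was then at 1.30 (adjusted p = 0.127), Fn1 at 0.81 (0.218) and Mmp2 at 0.89 (0.0512). Since libraries 4 and 15 also held the highest values of those genes, smaller fold changes without them were partly set by the choice. The part of the cells behind these markers in the matrix counts was not tested.

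Single libraries also set the count. It was 1 without library 4, 7, 15 or 21, with Mmp2 left in each case (1.88, 1.45, 1.6 and 1.3% of all genes higher). It was 2 without library 17 (1.94%) and 6 without library 8, 11 or 12 (2.83, 2.65 and 2.68%). Without library 4 the fibrillar median was 1.29 and the basement membrane median 0.13, and without library 3 they were 2.16 and 0.48. DESeq2 called 10 members higher (3.7% of the genes it tested), a fit without the filter on low counts 1 (0.741%) and a fit with only the 2 groups 2 (1.16%). A fit without libraries 17 and 18 called 2 (1.96%) and a fit without libraries 1 and 20 called 9 (2.93%). Libraries 1 and 20 are in neither group and enter only through the spread, scaling and filter that all 4 groups share.

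Some breakdown genes outside the 42 rose as well. Of 17 genes of collagen breakdown and uptake 5 rose, among them the collagen-degrading cathepsin gene Ctsk, to 130.0 ± 145 CPM in STZ TKO against 5.55 ± 1.67 CPM in STZ floxed libraries, 4.52 ± 0.82 (adjusted p = 0.00579). The metalloproteinase gene Mmp19 had 29.4 ± 23.0 CPM in STZ TKO against 5.18 ± 2.99 CPM in STZ floxed libraries, 2.51 ± 0.54 (adjusted p = 0.0111). Mmp12, macrophage elastase, had 39.5 ± 47.1 CPM in STZ TKO against 0.224 ± 0.207 CPM in STZ floxed libraries, where 1 of 5 libraries had no count. Of 21 synthesis genes 1 rose, Adamts2 at 1.20 ± 0.32 (adjusted p = 0.0311), with 27.3 ± 14.6 CPM in STZ TKO libraries and 11.8 ± 3.96 CPM in STZ floxed libraries. Of 17 TGF-beta genes 2 rose, Smad3 at 1.61 ± 0.30 (adjusted p = 0.00365) and Ccn2, connective tissue growth factor, at 0.90 ± 0.21 (adjusted p = 0.0129). Of 19 matrix receptors 1 rose, the integrin chain Itgav at 1.00 ± 0.23 (adjusted p = 0.0154), with 124 ± 33.0 CPM in STZ TKO and 62.2 ± 4.35 CPM in STZ floxed libraries. No fibroblast marker of 14 passed (1 at an unadjusted p under 0.05), and their summed level was 855 to 2250 CPM in STZ TKO against 767 to 2416 CPM in STZ floxed libraries. Tendon markers (0 of 10 called by edgeR, 1 at an unadjusted p under 0.05) had a median fold change of 0.75 and summed levels of 197 to 1323 CPM in STZ TKO against 207 to 854 CPM in STZ floxed libraries.

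TKO against floxed libraries asks what loss of FoxO does without diabetes. edgeR called 0 of the 42, with 7 at an unadjusted p under 0.05, while 0.514% of all genes passed, 0.15% higher and 0.363% lower; DESeq2 called 2, Postn and Timp1, both higher, against 1.45% of the genes it tested. The median was 0.32, with 0.58 for fibrillar collagens and 0.056 for basement membrane genes. Timp1 came nearest, with a lowest of 1.44, a median of 10.3 and a highest of 42.3 CPM in TKO libraries, against 1.53, 1.11, 0.861 and 1.61 CPM in floxed libraries, 3.44 ± 0.85 (adjusted p = 0.0713). It passed without library 13 (0.418% of all genes higher) and without libraries 17 and 18 (0.366%), which are in neither group. Its TKO values run from within the floxed range to far above it. Postn had a lowest of 10.1, a median of 21.3 and a highest of 805 CPM in TKO libraries, against 16.7, 6.68, 13.8 and 20.6 CPM in floxed libraries, 3.45 ± 1.04 (adjusted p = 0.192). The single value of 805 CPM, in library 20, is more than all other TKO values combined, and without that library Postn was at 1.05 ± 0.75 (adjusted p = 0.902) and Timp1 at 2.67 ± 0.78 (adjusted p = 0.195).

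None of the members named so far passed in this comparison. Col1a1 and Col1a2 were at -0.48 ± 0.83 and -0.58 ± 0.68, Col3a1 at 1.10 ± 0.69 with 512, 739 and 3694 CPM (lowest, median and highest) in TKO libraries, and Sparc at -0.18 ± 0.34 with a lowest of 407, a median of 667 and a highest of 1415 CPM. Col4a1 had a lowest of 171, a median of 195 and a highest of 319 CPM in TKO libraries and -0.031 ± 0.26, Col4a2 129, 141 and 189.6 CPM and -0.043 ± 0.26, and Col15a1 49.8, 70.9 and 132 CPM and -0.0080 ± 0.39. Lama2 and Nid1 were at 0.091 ± 0.18 and 0.078 ± 0.29, with 95.8, 142 and 162 CPM and 113, 158 and 287 CPM (lowest, median and highest) in TKO libraries. Loxl2 had 20.4, 32.6 and 69.2 CPM in TKO libraries and 0.056 ± 0.41. Every TKO library was below every floxed library for Dcn (-0.39) and Timp3 (-0.62), 2 of 42 against 2.61% of all genes, and none was wholly higher, against 2.35%. In each of the 4 runs that hold both groups 5 members were higher and 2 lower in TKO, against 13 and 15.3% of all genes. Without library 20 the number at an unadjusted p under 0.05 was 1, against 7 with it, and 21 rather than 32 of the 42 had a positive fold change, with medians of 0.24 for fibrillar collagens and -0.12 for basement membrane genes. Of 14 macrophage markers 2 rose, Fcer1g and Mpeg1. All 14 had a positive fold change and an unadjusted p under 0.05 in edgeR, with a median of 2.19. Their summed levels were 276 to 1960 CPM in TKO libraries, highest in library 20, against 154 to 198 CPM in floxed libraries. The part of the cells behind them was not tested.

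STZ TKO against TKO libraries asks what diabetes does where FoxO is deleted. edgeR called 0 of the 42, with 9 at an unadjusted p under 0.05, while 0.142% of all genes passed, 0.0948% higher and 0.0474% lower; DESeq2 called 2, Col15a1 and Sparc, both lower, against 0.351% of the genes it tested. Negative fold changes were found in 35 of the 42, with a median of -0.44, -0.85 for fibrillar collagens and -0.44 for basement membrane genes. Col15a1 had a lowest of 12.9, a median of 19.4 and a highest of 50.0 CPM in STZ TKO libraries, against 49.8, 70.9 and 132 CPM (lowest, median and highest) in TKO libraries, -1.62 ± 0.36 (adjusted p = 0.0716). No member had groups wholly apart, against 0.3% of all genes higher and 0.324% lower. The Col15a1 groups met only at library 4, at 50.0 CPM, and library 6, at 49.8 CPM. Sparc had a lowest of 188, a median of 328 and a highest of 492 CPM in STZ TKO libraries, against 407, 667 and 1415 CPM in TKO libraries, -1.14 ± 0.30 (adjusted p = 0.158).

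Type IV collagen had a lowest of 79.5, a median of 118 and a highest of 199.9 CPM for Col4a1 and 56.1, 86.7 and 145 CPM (lowest, median and highest) for Col4a2 in STZ TKO libraries, -0.73 ± 0.24 and -0.69 ± 0.23 against TKO (adjusted p = 0.277 and 0.304). Lama2 and Nid1 had 96.5, 127 and 149 CPM and 69.8, 88.8 and 225 CPM in STZ TKO libraries, at -0.13 ± 0.16 and -0.62 ± 0.26. Loxl2 had 9.03, 13.9 and 47.6 CPM in STZ TKO libraries, at -0.87 ± 0.37. The type I chains were at -1.49 ± 0.74 (Col1a1) and -1.28 ± 0.61 (Col1a2), Col3a1 at -0.95 ± 0.62 and Fn1 at 0.10 ± 0.53. The 5 runs that hold both groups did not share a direction: fibrillar medians were 1.39, -1.64, -1.78, 0.11 and -1.68, positive in the runs of libraries 4 and 15. Lower in every run were 2 of the 42, and 1 was higher in every run, against 7.69 and 6.23% of all genes. The count was 2, Col15a1 and Eln, without library 4 (0.215% of all genes lower in that fit). It was 2, Col15a1 and Col18a1, without libraries 4, 15, 16 and 20 (0.13%), and 1, Col15a1, with the run as a block (0.419%). With library 20 left out 24 rather than 35 of the 42 had a negative fold change, with medians of -0.46 for fibrillar collagens and -0.29 for basement membrane genes, and without library 4 the medians were -1.44 and -0.74.

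The difference between both STZ effects, in knockouts less that in floxed mice, was itself tested. edgeR called 0 of the 42 (all at an adjusted p of 1.00 to 2 decimals), with 2 at an unadjusted p under 0.05, and DESeq2 called 0, while 0.0079% of all genes passed. The 2 were Col1a1 at 2.94 ± 1.14 and Col1a2 at 2.44 ± 0.94 (edgeR, unadjusted p = 0.0185 and 0.017). Of 42 genes about this many pass an unadjusted cut at 0.05 with no difference, so the 2 are not read as a result. Fibrillar collagens had a median of 1.33 and basement membrane genes one of 0.18. The number at an unadjusted p under 0.05 was 0 with library 4 left out and 13 with library 20 left out, with 0 called by edgeR in both cases. That 6 members passed in floxed mice and none in knockouts is therefore not shown to be a difference between the genotypes.

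The balance of fibrillar and basement membrane transcripts was described per library. The mean level of the 6 fibrillar collagens less that of the 11 basement membrane genes (log2 CPM centred per gene) was 0.029 ± 0.86 in STZ TKO, 0.69 ± 0.49 in TKO, -1.23 ± 0.42 in STZ floxed and 0.46 ± 0.42 in floxed libraries (SD, n = 6, 6, 5 and 4). The difference lay between -1.82 and -0.72 in STZ floxed libraries and between 0.12 and 1.01 in floxed libraries, without overlap. STZ TKO libraries ran from -1.15 to 1.20, across both.

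**Figure D5:**
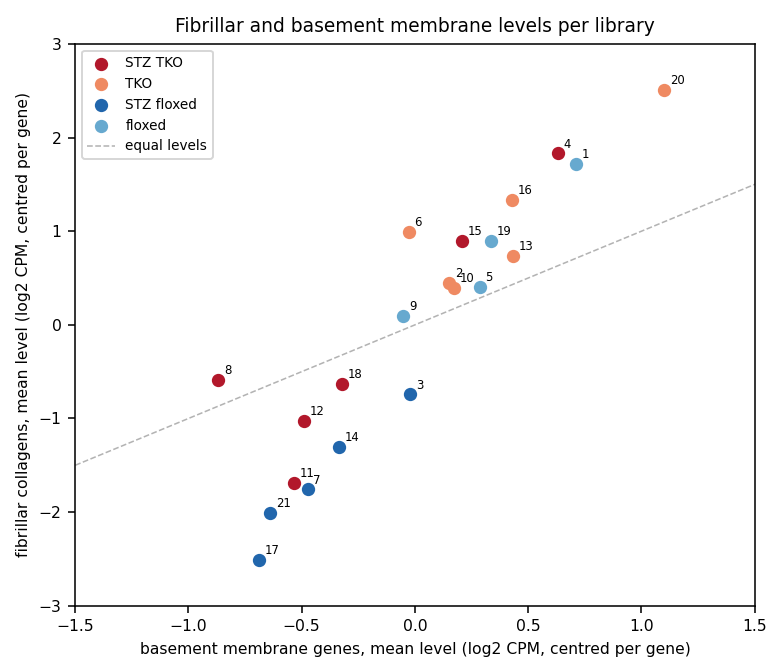
Mean level of the 11 basement membrane genes (x) and of the 6 fibrillar collagens (y) in each library, both in log2 CPM centred per gene, coloured by group and numbered by title; the dashed line marks equal levels. The 5 STZ floxed libraries lie below the line and all TKO and floxed libraries above it, with STZ TKO libraries on both sides and libraries 20, 4 and 1 at the upper right.

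Within the fibrillar class the proportions of the chains were described per library. Per exon length, the ratio of Col3a1 to Col1a1 had a median of 1.98 (1.28 to 3.29) in STZ TKO, 1.09 (0.506 to 1.59) in TKO, 1.66 (1.03 to 1.97) in STZ floxed and 0.504 (0.213 to 0.994) in floxed libraries. Every STZ floxed library was thus above every floxed library in this ratio. Col1a1 to Col1a2, chains found in a fixed proportion in the usual type I molecule, had a median of 1.07 (0.698 to 1.49) in STZ TKO, 1.38 (1.09 to 1.85) in TKO, 0.785 (0.69 to 0.982) in STZ floxed and 1.23 (1.03 to 1.64) in floxed libraries. The STZ TKO range overlapped those of all other groups. The ratio of Col4a1 to Col4a2 had medians of 1.26 in STZ TKO, 1.26 in TKO, 1.27 in STZ floxed and 1.31 in floxed libraries. These ratios were chosen after the values had been seen and are given with no test.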

How the data were processed

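The deposited table holds whole-number read counts per Ensembl mouse gene, not normalized by the authors. Per the labels' protocols, RNA was extracted with Trizol and made into strand-keeping libraries, 48 multiplexed. The submitters' processing notes name STAR, featureCounts and GRCm38.p4; no version, strand setting or rule for multiply mapped reads is stated there, so overlapping genes on opposite strands cannot be told apart. Symbols (45143 of 46071 identifiers), coordinates and exon lengths came from GENCODE release 21 on GRCm38, and promoters from RefSeq.

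Groups came from the titles. filterByExpr kept 12658 genes. Libraries were scaled by TMM, and edgeR's robust quasi-likelihood fit took all 21 libraries, with one coefficient per group (edgeR 4.0.16, R 4.3.3, biological coefficient of variation 0.325). Spread, scaling and filter were shared by the 4 groups, so leaving out a library could move counts in comparisons that do not hold it. Alternatives were RLE factors, DESeq2 1.42.0, no filter, only the groups compared, the run as a block, and leaving out each library. Sets of libraries were also left out: 4, 15, 16 and 20 (high macrophage markers), 17 and 18 (low respiratory chain genes), or 1 and 20. Each set was picked from expression in these same data, and the last was added after the matrix results had been seen. List levels are means of log2 CPM (prior count 2) centred per gene.

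The members, lists and comparisons were chosen with earlier results of these data known. Values by library, or the lowest, median and highest in groups of 6, are given for Col1a1, Col1a2, Col3a1, Col4a1, Col4a2, Col15a1, Lama2, Nid1, Sparc and any member past the threshold in a contrast, and in at least 1 comparison for Timp1, Postn and Thbs1, which were added after their values were seen; of each other list at most the 3 genes of smallest p are named. Lists covered synthesis, receptors, TGF-beta, breakdown, proliferation, and markers of fibroblasts, tendon, macrophages, endothelium, mural cells, adipocytes, Schwann cells and muscle fibres. After group means were subtracted, pairs within a run correlated at 0.157 on average (27 pairs) and pairs from different runs at -0.0774 (183 pairs). No 2 libraries of a group were alike within counting noise (chi-square per degree of freedom at least 8.61 in 46 pairs).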

Additional observations from a re-analysis of the deposited data

Results flagged for a closer look

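Each gene and each class level was examined in the groups of 4 to 6 libraries for a library whose gap to its nearest neighbour is a large share of the group's range (Dixon's 95% critical values). Of 200 such tests 32 met the criterion, and 26 of them were library 20 as the highest TKO library. The tests share the same libraries and the genes were taken in unlogged CPM, so the 32 cannot be set against a chance rate.

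Among fibrillar collagens library 20 had 2055 CPM of Col1a1 (next 856), 2108 CPM of Col1a2 (next 1037), 279.9 CPM of Col5a1 (next 108) and 314 CPM of Col5a2 (next 113). Its basement membrane values were 319 CPM of Col4a1 (next 203), 189.6 CPM of Col4a2 (next 145), 57.0 CPM of Col18a1 (next 26.4) and 167 CPM of Lamb1 (next 93.2). For other collagens they were 366 CPM of Col6a1 (next 192), 490.3 CPM of Col6a3 (next 173), 91.6 CPM of Col8a1 (next 15.2), 110.5 CPM of Col12a1 (next 35.4), 109 CPM of Col14a1 (next 51.8) and 56.0 CPM of Col16a1 (next 25.4). Glycoproteins and matricellular genes in library 20 reached 706 CPM of Fn1 (next 249), 565 CPM of Fbn1 (next 218), 1415 CPM of Sparc (next 723), 805 CPM of Postn (next 77.4), 390.4 CPM of Tnc (next 48.5) and 239 CPM of Thbs1 (next 112). It also held 694 CPM of Bgn (next 242) and 193 CPM of Lox (next 60.1). As mean class levels (log2 CPM centred per gene) it was at 2.20 for other collagens (next 0.73), 2.12 for adhesive and elastic glycoproteins (next 0.60), 2.70 for matricellular proteins (next 0.40) and 1.70 for cross-linking enzymes (next 0.50). Its summed macrophage markers were 1960 CPM, the highest of the TKO group, and its summed tendon markers 1579 CPM, also the highest; their part in these values was not tested.

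In the STZ TKO group library 4 was the highest for Col5a3 (84.9 CPM, next 44.0) and Eln (55.9 CPM, next 22.8), and library 8 for Dcn (1404 CPM, next 602). In the STZ floxed group library 17 was the highest for Lox (109 CPM, next 48.8) and Timp1 (5.82 CPM, next 1.56) and the lowest for the class level of the small leucine-rich proteoglycans (-1.22, next -0.46).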

How the results depend on the processing

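No called gene changed sign under any alternative run. Of the recomputed counts and medians 369 stayed near the reported values and 39 did not. Near meant a count that was equal, 0 included, or of similar size. For a median it meant a move smaller than the mean SD of the class level in the groups compared. The count of lower members in STZ floxed against floxed libraries stayed near in 3 of 9 fits with a single library left out. Of the recomputed calls of single genes 107 held and 71 lost significance. The cause was not tested. Leaving out libraries 1 and 20 was chosen after seeing the matrix results. The other sets of libraries were also picked from expression in these data. In STZ floxed against floxed libraries the 6 lower members became 10 with DESeq2 (and 1 higher), 3 without the filter, 13 with the 2 groups alone, 12 with the run as a block, 17 without libraries 4, 15, 16 and 20 (and 1 higher), 3 without 17 and 18, and 1 without 1 and 20; leaving out single libraries gave 0 to 8 lower and 0 to 1 higher, fibrillar medians of -2.35 to -1.87 and basement membrane medians of -0.76 to -0.54. In STZ TKO against STZ floxed the 4 higher members became 10 with DESeq2, 1 without the filter, 2 with the 2 groups alone, 17 (and 1 lower) with the run as a block, 2 without 4, 15, 16 and 20, with medians of 0.53 (fibrillar) and -0.15 (basement membrane), 2 without 17 and 18, and 9 without 1 and 20; single libraries left out gave 1 to 6, with medians of 1.29 to 2.16 and 0.13 to 0.48. In TKO against floxed, 2 were higher with DESeq2 and 1 without 17 and 18, and 0 to 1 with single libraries left out (medians 0.24 to 0.84 and -0.12 to 0.19). In STZ TKO against TKO, 2 were lower with DESeq2, 1 with runs blocked and 2 without 4, 15, 16 and 20, and 0 to 2 with single libraries left out (medians -1.44 to -0.46 and -0.74 to -0.29). The interaction called 0 in each (medians 0.77 to 1.91 and 0.0017 to 0.37). RLE factors changed 1 call, Col4a1 (adjusted p = 0.0514). The share of all genes called moved between these fits as well, and is given with the comparisons above.

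No paired analysis was possible because the title numbers are unique to each library and the labels tie no libraries to one another; the fit with the run of library codes as a block, given above, is matched by code and not by a stated pairing. Depth limits low members such as Timp1, which had under 2 CPM in the floxed libraries.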

Other observations

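Cell type markers and pathway lists that the comparisons above leave out had few members past the threshold in edgeR. Endothelial markers (12) had none in the 4 comparisons (at most 4 at an unadjusted p under 0.05, in STZ TKO against STZ floxed), with summed levels of 338 to 541 CPM in STZ TKO, 436 to 565 CPM in TKO, 605 to 686 CPM in STZ floxed and 512 to 668 CPM in floxed libraries. Every STZ TKO library was therefore below every STZ floxed library in this sum. Of 9 mural cell markers 1 fell in STZ TKO against STZ floxed libraries, the smooth muscle myosin gene Myh11 (-0.90 ± 0.22, adjusted p = 0.0184), with 31.1 ± 6.49 CPM in STZ TKO and 58.5 ± 13.9 CPM in STZ floxed libraries (SD, n = 6 and 5). Of 10 muscle fibre markers 1 rose there, the oxygen store Mb (2.92 ± 0.41, adjusted p = 0.000386), with 1353 ± 515 CPM in STZ TKO, 1235 ± 363 CPM in TKO, 179 ± 119.8 CPM in STZ floxed and 1122 ± 195 CPM in floxed libraries.

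None of 7 adipocyte, 6 Schwann cell or 7 proliferation genes passed in any of the 5 contrasts in edgeR, with at most 3, 1 and 6 of them at an unadjusted p under 0.05 in one contrast. The 7 proliferation genes had medians of 1.76 in STZ TKO against STZ floxed (3 at an unadjusted p under 0.05) and 2.90 in TKO against floxed libraries (6 at an unadjusted p under 0.05). Summed over all 10 listed proliferation genes, tested or not, levels were 30.8 to 92.4 CPM in STZ TKO, 38.6 to 175 CPM in TKO, 26.6 to 57.6 CPM in STZ floxed and 25.2 to 29.7 CPM in floxed libraries.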
